A study of Mus musculus with 9 samples.

Results

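The cytosolic ribosomal protein genes were examined in ATDC5 cells, a mouse cell line that can be driven along the cartilage lineage in culture. They were chosen by symbol: every entry of the deposited table named Rpl or Rps with a number, with or without a closing letter or paralogue ending, and the symbols Rplp0, Rplp1, Rplp2 and Rpsa. Of 26202 genes in the table, 85 matched, and 83 had a mean of at least 1 CPM, the usual read count scaled to library size and here also by TMM, a correction for library composition. The other two were Rpl10l, listed at 0, and Rpl3l, at a mean of 0.0812 CPM. Among the 83 genes, 47 were assigned to the large subunit by symbol alone, 33 to the small subunit and 3 to the stalk of the large subunit. Paralogues such as Rpl7l1 were assigned in the same way. GENCODE lists 81 of them as protein coding, and Rpl32l and Rps4l as processed pseudogenes, which are copies of a mature mRNA set back into the genome.

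Messenger RNA was sequenced from 9 libraries, 3 each of cells labelled control, acetate and ethanol. All were kept in DMEM/F-12 medium with serum, to which ascorbate, beta-glycerophosphate and an insulin, transferrin and selenium supplement were added when the treatments began. The study asked whether acetate, which cells make from ethanol, accounts for what ethanol does to bone and to maturing cartilage cells. Doses and times are not stated in the sources used here. The labels do not tell whether replicates came from separate cultures, so p-values reflect the spread between these libraries, which may be technical. ATDC5 is 1 cell line.

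Each ribosome holds a single copy of nearly every ribosomal protein, so cells make these proteins in matched amounts, and their mRNAs are among the most abundant in dividing cells. The mRNAs begin with a C followed by a run of pyrimidines, the terminal oligopyrimidine or TOP motif, through which the kinase complex mTORC1 and the RNA-binding protein LARP1 set their translation and stability. Chondrocytes secrete large amounts of matrix protein, and loss of 1 copy of a ribosomal protein gene is known to disturb the skeleton in mice and humans.

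To show what such a run looks like in the DNA, 30 bases are printed for some of the genes whose values are described below. They are in lower case, with the longest run of a C and following pyrimidines within 50 bases of the RefSeq start in capitals. Each window is placed around that run and need not hold the start itself: the run begins 39 bases before the RefSeq start in Rpl22 and 34 bases after it in Rps21. They are read 5′ to 3′ on the gene's strand from RefSeq promoter entries of GRCm38.p6.
Rps21: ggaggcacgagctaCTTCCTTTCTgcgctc
Rps15: cagcccgtaCTTCCTTTTCCgagtaaccgc
Rpl31: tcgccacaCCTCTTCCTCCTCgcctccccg
Rpl4: agcgtggCCTTCTCCTCTCCCCgtcatggt
Rps6: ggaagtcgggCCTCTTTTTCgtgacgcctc
Rpl22: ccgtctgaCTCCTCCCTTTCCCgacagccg
Rpl22l1: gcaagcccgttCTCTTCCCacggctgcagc
Rps27: tccgctttcgCTCCTTTCCggcggtgacga
Rps27l: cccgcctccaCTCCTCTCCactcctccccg
Rpl7l1: gtcgaggcgggCCTCTCTaccccgcccggt
The windows lie at chr2:180257399-180257428 for Rps21, chr10:80292447-80292476 for Rps15, chr1:39367825-39367854 for Rpl31, chr9:64173406-64173435 for Rpl4, chr4:152325679-152325708 for Rpl22, chr3:28805500-28805529 for Rpl22l1 and chr9:66946054-66946083 for Rps27l, all on the plus strand. Those on the minus strand lie at chr4:86857349-86857378 for Rps6, chr3:90213631-90213660 for Rps27 and chr17:46782670-46782699 for Rpl7l1. The run of Rpl7l1 has 7 bases and is shorter than the 8 counted as a tract. Other genes described below but not shown also fell short of 8 bases, among them Rpsa (7), Rplp0 (5) and Rps4x (5). Rps28 had no run of at least 5 bases.

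How many of the 83 genes held such a tract depended on the start used and on the stretch searched. Within 50 bases of the RefSeq start, on the gene's strand, 52 of the 62 genes with an entry (83.9%) held a C followed by at least 7 pyrimidines, against 32.0% of 27025 genes with an entry. Entries covered 74.7% of the 83 genes, under the 80% needed to read the share as one of the whole set, so that check is void. The first 50 bases of the GENCODE transcript, looked at after the first share was known because they cover all 83 genes, held a tract in 26 (31.3%), against 12.1% of the other genes tested. Among the other genes tested with an entry, the RefSeq share was 31.7%. The RefSeq search took bases on both sides of the start in any entry of a gene. The GENCODE search took only bases after the start of a single transcript, so the shares differ in more than the start. With either start, genes with and without a tract had close ethanol values: median log2 fold changes of -0.50 and -0.47 with the RefSeq start and of -0.48 and -0.52 with the GENCODE start.

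Library sizes were 28.7 to 41.9 M reads, so a single read was worth 0.0231 to 0.0348 CPM. Chondrocyte markers (Col2a1, Acan, Sox9 and 5 others) were all present, at a summed 10620 to 13900 CPM in control, 5592 to 6230 in acetate and 5056 to 6295 in ethanol, and fibroblast markers summed to 23820 to 27960, 24130 to 30850 and 18180 to 18790. Of 6 haematopoietic markers 5 were under 1 CPM in all libraries, as were all 4 of skeletal muscle and of hepatocytes and 3 of 4 each of endothelium, epithelium and adipocytes. Acetate replicate 2 stood apart: it was the highest of the 9 libraries for 33.3% of the genes tested and the lowest for 36.9% (36 and 7 of the 83 genes).

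Per kilobase of transcript, the level over all libraries was highest for Rpl41 (1661 CPM per kb), Rpl32 (1231), the stalk genes Rplp0 (1144) and Rplp1 (1040) and Rpl4 (1026). It was lowest for Rpl34 (13.2), Rps6 (18.7), Rpl30 (25.6), the paralogue Rpl22l1 (45.1) and Rpl29 (61.4). A median of 53.7% of the 50-base words of a member's transcript also occurred at other loci, and 48 of the 83 genes shared more than 50%. Where a parent gene and its copies hold the same words, the counting, which the sources used here do not describe, could split their reads, so the levels of single genes are uncertain. Across the 83 genes, the level per kilobase and the share of shared words had a correlation of 0.11.

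The widest gap between a parent and its pseudogene entry was that of Rps6, the small-subunit protein that S6 kinases phosphorylate. Its mean was 16.4 CPM, while the entry Rps6-ps4, a pseudogene of it, stood at 982 CPM, 59.9 times as high. Whether reads of Rps6 were counted in that entry was not tested. The pseudogene entry also exceeded its parent for Rpl14-ps1 (474 against 128 CPM), Rplp2-ps1 (311 against 145), Rpl17-ps10 (227 against 121), Rpl31-ps12 (273 against 151) and Rpl34-ps1 (8.17 against 6.34). It was lower than the parent for Rps18-ps4 (326 against 496 CPM) and Rps19-ps3 (70.6 against 251). These entries were taken as pseudogenes by symbol. GENCODE lists Rps18-ps4 as a long non-coding RNA gene, and Rplp2-ps1 had no match there.

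**Figure D1:**
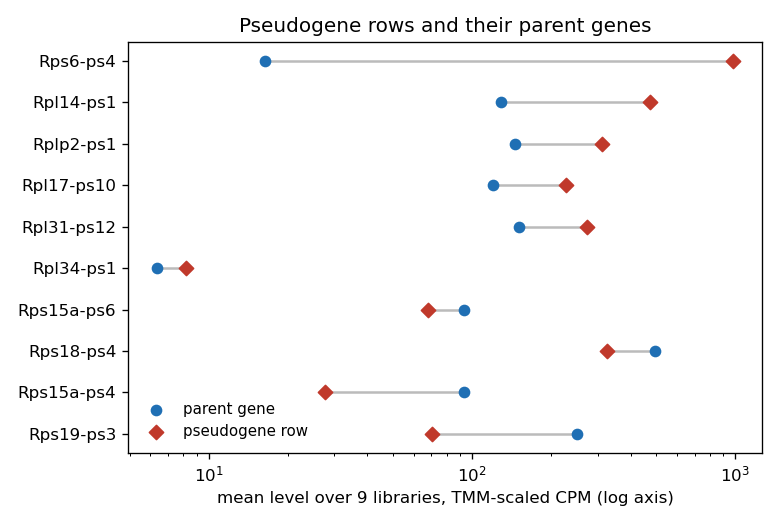
Mean level over the 9 libraries of the 10 tested entries named by symbol as pseudogenes of ribosomal proteins (red diamonds) and of their parent genes (blue circles), in TMM-scaled CPM on a log axis. In 6 of the 10 pairs the pseudogene lies to the right of the parent, most widely for Rps6-ps4 at 982 against 16.4 CPM.

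Summed over the 83 genes, ribosomal protein mRNA was at 39274, 33909 and 28781 CPM in control replicates 1, 2 and 3. It was at 36424, 36534 and 23390 CPM in acetate and at 26869, 25233 and 19769 CPM in ethanol. All 3 ethanol libraries lay below all 3 control libraries, while the acetate libraries overlapped both other groups. The means were 33988 ± 5247 (SD, n = 3) in control, 32116 ± 7557 in acetate and 23957 ± 3718 in ethanol. Between libraries of the same number, the ratio of ethanol to control was 0.684, 0.744 and 0.687, and that of acetate to control 0.927, 1.08 and 0.813. CPM values are shares of a library, and in bulk RNA fewer cells of a type and less RNA per cell cannot be told apart.

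**Figure D2:**
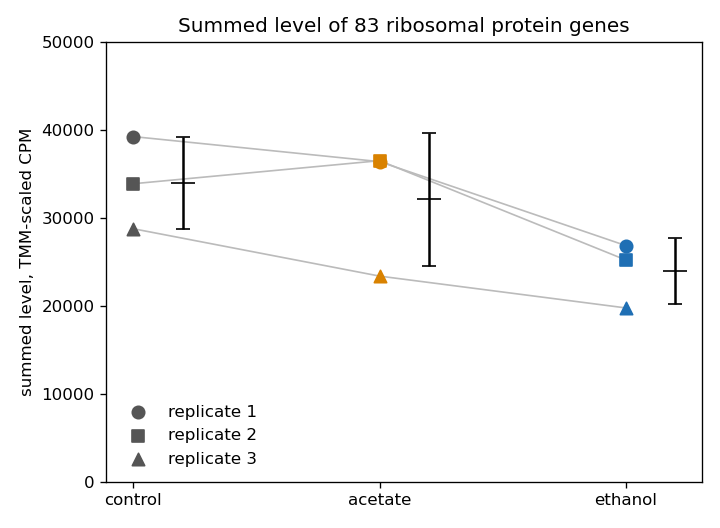
Summed level of the 83 genes in each library, in TMM-scaled CPM, with grey lines joining libraries of the same replicate number and black bars giving the mean ± SD (n = 3). The ethanol libraries sit between 19769 and 26869 CPM, below the control libraries, and replicate 3 is the lowest of each group.

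The lower sum with ethanol was seen in both subunits. The ratios by number were 0.683, 0.743 and 0.687 for the large subunit, 0.680, 0.733 and 0.691 for the small subunit and 0.715, 0.810 and 0.665 for the stalk. They were 0.692, 0.761 and 0.695 for the 35 genes with at most 50% of their words at other loci. Libraries numbered 3 were the lowest of their group in all 3 groups for 64 of the 83 genes, against 11.6% of all genes.

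Against control, ethanol gave 82 of the 83 genes a negative log2 fold change, with a median of -0.50 and an interquartile range of -0.58 to -0.45, while the median over all 12868 genes was -0.00 (-0.18 to 0.17). None of the 83 passed the threshold, an adjusted p under 0.05 in limma, which 3.93% of all genes passed. An unadjusted p under 0.05 was found for 36 of the 83 and for 2444 of all 12868 genes. The replicate numbers were taken to pair ethanol with control libraries. With the number as a block in limma 38 genes fell and none rose, where 5.07% of all genes fell. In 60 genes all 3 ethanol libraries were below all 3 control libraries (23.3% of all genes), and in 80 ethanol was lower at every number (33.7%). The call rests on the fit: 64 of the genes fell and 1 rose with only the 6 libraries compared (14.6% of all genes fell), and 20 fell without acetate replicate 2 (11.3%). With the libraries numbered 1 and 2 alone none fell, where 0.0% of all genes passed and the median was -0.48. In that fit 42 of the 83 had an unadjusted p under 0.05, as did 1566 of all 12868 genes. With GC correction 5 fell (9.21% of all genes), with that and the block 73 (20.2%), with the block without acetate replicate 2 79 (25.9%) and with the block on only the 6 libraries 79 (25.7%). Chondrocyte, fibroblast and osteoblast markers were also lower in ethanol than in control (osteoblast 4406 to 5200 against 7020 to 8228 CPM), and their part in the result was not tested.

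**Figure D3:**
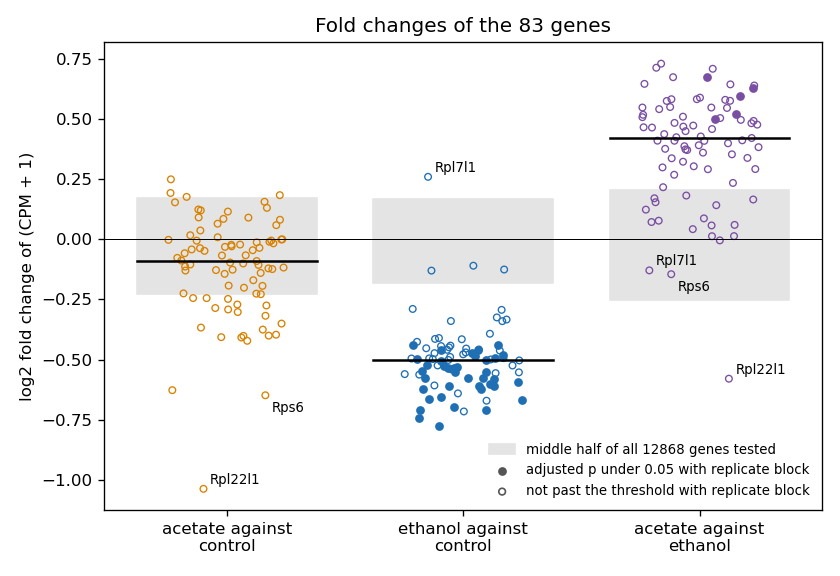
Log2 fold change of each of the 83 genes in the 3 comparisons, on the scale of log2(CPM + 1), with the median as a black bar and the interquartile range of all 12868 genes in grey. Filled points passed an adjusted p under 0.05 with the replicate block, 38 genes for ethanol against control and 5 for acetate against ethanol. Acetate and ethanol share their control libraries.

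Among small-subunit genes, all 33 had negative values with ethanol, with a median of -0.49. The largest change among the 83 was that of Rps21, a protein of the small subunit, at 89.8, 78.2 and 57.5 CPM in control and 52.5, 50.6 and 29.3 in ethanol. All ethanol libraries lay under all control libraries, and the log2 fold change was -0.78 ± 0.36 (SE; limma adjusted p = 0.28, and 0.040 with the block). Rps19, which is mutated in Diamond-Blackfan anaemia, was at 329, 284 and 247 CPM in control and 202, 185 and 139.9 in ethanol (-0.71 ± 0.26; limma adjusted p = 0.19, and 0.046 with the block). Rpsa, also a laminin receptor, was at 1782, 1663 and 1319 CPM in control and 1210, 1144 and 985 in ethanol. It changed by -0.51 ± 0.18 (limma adjusted p = 0.18, and 0.032 with the block). Groups of both genes were apart. Rps28 and Rps15 are further small-subunit proteins, picked after their values were seen. Rps28 was at 302, 249 and 215 CPM in control and 169.8, 173 and 117 in ethanol (-0.74 ± 0.26). Rps15 was at 681, 611 and 483 CPM in control and 401, 385 and 297 in ethanol (-0.71 ± 0.23). The limma adjusted p-values of these 5 genes with the block ran from 0.024 to 0.046. Over all 24 alternatives they ran from 3.0e-30 to 0.70, the lowest with the block on only the 6 libraries compared. That fit passed 6419 of all 12868 genes and leaves few degrees of freedom. Its p-values therefore rest mainly on the variance that limma shares over genes, and do not measure a gene's own spread over its pairs. Rps27a, a ubiquitin fusion protein, stood at 522, 492 and 382 CPM in control and 409, 357 and 285 in ethanol, with groups that overlapped. Rps6 was at 21.9, 21.3 and 17.9 CPM in control and 15.0, 13.0 and 14.1 in ethanol, with no overlap (log2 fold change -0.50 ± 0.41, adjusted p = 0.47 in limma with the block).

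Large-subunit genes had a median of -0.52, and 23 of the 47 fell with the block (5.07% of all genes). Rpl10, which sits by the peptidyl transferase center, was at 996, 872 and 703 CPM in control and 629, 578 and 422 in ethanol. Its groups did not overlap, and its log2 fold change was -0.66 ± 0.23 (limma adjusted p = 0.16, and 0.012 with the block). Rpl4, a protein of the exit tunnel wall, was at 1982, 1772 and 1549 CPM in control and 1352, 1308 and 1135 in ethanol, with no overlap (-0.48 ± 0.17; limma adjusted p = 0.16, and 0.033 with the block). Rpl38, whose loss in mice alters the axial skeleton, was at 173, 158 and 130.0 CPM in control and 123, 113 and 76.4 in ethanol, with no overlap (-0.58 ± 0.24; limma adjusted p = 0.044 with the block). Rpl31, picked after its values were seen for the lowest adjusted p with the block, was at 208, 189.9 and 142 CPM in control and 130.1, 115 and 91.8 in ethanol (-0.67 ± 0.22; limma adjusted p = 0.13, and 0.0092 with the block). Over the 24 alternatives the adjusted p of these 4 genes ran from 1.7e-24 to 0.64, and the lowest values have the same limit. Rpl5 and Rpl11, which together bind MDM2, did not pass in either fit, at -0.46 ± 0.25 and -0.50 ± 0.23. Rpl5 was at 1236, 1058 and 907 CPM in control and 875, 783 and 665 in ethanol, with no overlap. Rpl11 was at 412, 311 and 299 CPM in control and 266, 256 and 199 in ethanol, also with no overlap. Rpl13a, which interferon releases from the ribosome, was at 849, 665 and 593 CPM in control and 574, 523 and 393 in ethanol and had a log2 fold change of -0.50 ± 0.26 (adjusted p = 0.086 in limma with the block). Of the most and least abundant, Rpl41 had -0.39 ± 0.26, Rpl32 -0.50 ± 0.24, Rpl34 -0.29 ± 0.27, Rpl30 -0.52 ± 0.21 and Rpl29 -0.53 ± 0.24.

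The stalk recruits elongation factors to the ribosome, and its genes had values near the others. Rplp0 was at 2030, 1645 and 1519 CPM in control and 1470, 1361 and 1006 in ethanol, with no overlap (log2 fold change -0.44 ± 0.22). Rplp1 was at 657, 631 and 464 CPM in control and 477, 471 and 318 in ethanol, with groups that overlapped (-0.47 ± 0.26; adjusted p = 0.043 in limma with the block, the only stalk gene past the threshold in that fit). Rplp2 was at 182, 150.1 and 121 CPM in control and 104, 134 and 74.4 in ethanol, with groups that overlapped (-0.55 ± 0.35).

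For acetate against control the median was -0.09 (interquartile range -0.24 to -0.00), 64 genes were negative and 19 positive, and none of the 83 passed, where 1.0% of all genes did. None had an unadjusted p under 0.05, where 1875 of all 12868 genes did. No gene had acetate libraries apart from the control libraries (8.14% of all genes were lower throughout and 11.4% higher). At all 3 numbers 27 genes were lower (19.9%). Acetate replicate 3 and control replicate 1 set the sign of the median, which was 0.14 without the first and 0.02 without the second. Without acetate replicate 2 it was -0.21, with 82 negative genes and none past the threshold, where 3.48% of all genes passed. The block gave none either (2.28% of all genes passed), but the block with GC correction gave 19 lower genes (9.88% of all genes) and the block without acetate replicate 2 gave 29 (9.34%).

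Within the acetate group, replicate 2 moved with base composition. Its difference from the mean of replicates 1 and 3 ran from -2.21 for Rpl22l1 to 1.00 for Rplp2 on the log2 scale. The correlation with GC content of the transcript across the 83 genes, which share 1 library, was 0.63. Medians were -0.20 in the 16 genes under 48% GC, 0.29 in 41 genes from 48 to 54% and 0.63 in 26 genes above. In the fold changes, acetate against control had medians of -0.26, -0.12 and -0.00 over these classes, and -0.19, -0.22 and -0.19 without that library. Ethanol against control had -0.49, -0.50 and -0.52.

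**Figure D4:**
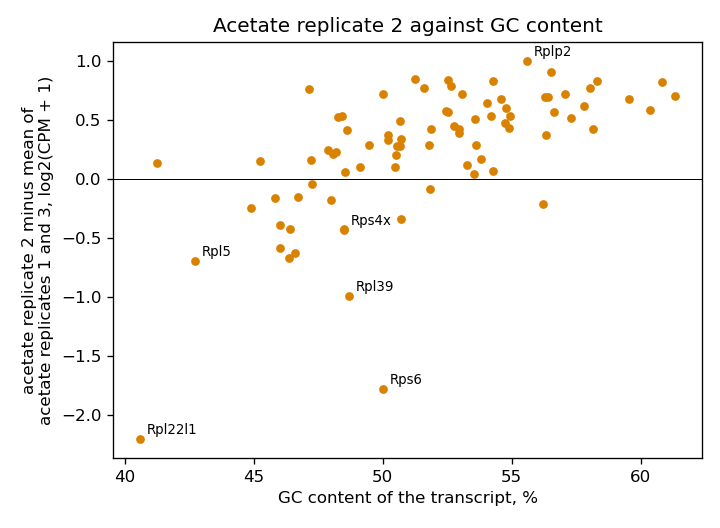
Acetate replicate 2 minus the mean of acetate replicates 1 and 3, in log2(CPM + 1), against GC content of the transcript in percent, 1 point for each of the 83 genes. Genes of low GC content lie low, with Rpl22l1 at -2.21, and the correlation across genes is 0.63.

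The lowest acetate values were those of genes that were low in replicate 2. Rpl22l1, a paralogue of Rpl22, was at 37.2, 36.4 and 22.2 CPM in control and 38.3, 4.65 and 16.3 in acetate, so replicate 2 alone was near 5 CPM. The log2 fold change was -1.04 ± 0.58 (limma adjusted p = 0.42) and -0.30 without that library. Rpl39, a small protein of the exit tunnel, was at 383, 325 and 275 CPM in control and 372, 132 and 187 in acetate. Its log2 fold change of -0.63 ± 0.34 became -0.30 without replicate 2. Rps6 was at 22.3, 4.96 and 17.1 CPM in acetate and went from -0.65 ± 0.41 to -0.05. Rpl5 was at 1208, 579.8 and 734 CPM in acetate and went from -0.40 ± 0.25 to -0.17, and Rps4x, at 919, 528 and 553 CPM, from -0.42 ± 0.23 to -0.28.

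Acetate and ethanol libraries were compared directly to see how the treatments differ. The median was 0.42 (interquartile range 0.28 to 0.53), and 79 genes were higher with acetate. None passed the threshold (3.73% of all genes did), and 16 had an unadjusted p under 0.05, as did 2709 of all 12868 genes. The replicate numbers were taken to pair these libraries too. With the block 5 genes were higher with acetate and none lower, where 4.67% of all genes were higher. At all 3 numbers 67 genes were higher with acetate (29.2%). In 1 gene all acetate libraries were lower than all ethanol libraries (12.5% of all genes), and in none were they all higher (15.3%). Without acetate replicate 3, 10 were higher (4.24% of all genes), and without acetate replicate 2 none passed (8.61%), where the median was 0.30. The block gave 66 higher genes with GC correction (17.3%) and 77 without acetate replicate 2 (19.1%).

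The 5 genes past the threshold with the block, picked by it, were Rpl31, Rpl37a, Rps15, Rpl30 and Rps28. As 5 of the 83 genes, they made up a share close to the 4.67% of all genes that were higher in that fit. Rpl31 was at 192, 170.5 and 119.6 CPM in acetate and 130.1, 115 and 91.8 in ethanol, with groups that overlapped. Its log2 fold change was 0.50 ± 0.22 (limma adjusted p = 0.23, and 0.025 with the block). Rps15 was at 584, 740.0 and 396 CPM in acetate and 401, 385 and 297 in ethanol (0.63 ± 0.23; adjusted p = 0.041 in limma with the block). Rpl37a, a zinc-binding protein of the large subunit, was at 191, 263 and 126 CPM in acetate and 137, 137 and 81.9 in ethanol (0.68 ± 0.31). Rps28 was at 278, 281 and 153 CPM in acetate and 169.8, 173 and 117 in ethanol (0.60 ± 0.26), and Rpl30 at 17.6, 18.2 and 13.1 CPM in acetate and 12.5, 13.3 and 7.82 in ethanol (0.52 ± 0.21). In all 5 genes acetate replicate 3 lay within the range of the ethanol libraries. The largest value was that of Rps21, at 86.2, 106 and 40.0 CPM in acetate and 52.5, 50.6 and 29.3 in ethanol, with a log2 fold change of 0.73 ± 0.36 (limma adjusted p = 0.27, and 0.054 with the block). Over the 24 alternatives the adjusted p of these 6 genes ran from 6.6e-10 to 0.58. The lowest came with the block without acetate replicate 2, which passed 4262 of all 12868 genes, and rests mainly on variance shared over genes.

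Several core proteins have a paralogue in the set, and with ethanol Rpl39l, Rps27l and Rps4l stood nearer to 0 than their parents. Rpl39 was at 383, 325 and 275 CPM in control and 248, 232 and 156 in ethanol, while Rpl39l, known for a role in the testis, was at 86.8, 80.7 and 76.1 CPM in control and 81.0, 80.1 and 65.3 in ethanol. The log2 fold changes were -0.64 ± 0.34 and -0.11 ± 0.16. Rps27 was at 74.6, 74.5 and 56.2 CPM in control and 60.1, 47.9 and 34.4 in ethanol, and Rps27l, a p53 target, at 70.1, 67.5 and 62.2 CPM in control and 71.7, 65.4 and 48.1 in ethanol (-0.54 ± 0.24 and -0.13 ± 0.18). Without ethanol replicate 3 the value of Rps27l was 0.04. Rps4x was at 1018, 848 and 748 CPM in control and 716, 631 and 511 in ethanol, and the pseudogene Rps4l at 56.8, 50.5 and 55.6 CPM in control and 49.2, 54.8 and 45.0 in ethanol (-0.49 ± 0.23 and -0.13 ± 0.19). Rpl22 and Rpl22l1 had close values, of -0.50 ± 0.22 and -0.46 ± 0.58. Whether any paralogue differs from its parent was not tested. Rpl32l, the other annotated pseudogene, was at 40.8, 40.2 and 28.4 CPM in control and 26.6, 26.7 and 17.7 in ethanol (-0.61 ± 0.31). Its value lay further from 0 than that of Rpl32 (-0.50 ± 0.24).

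Rpl7l1, a paralogue of Rpl7 that acts in ribosome assembly, was the only gene of the 83 with a positive fold change for ethanol against control. It was at 106, 102 and 121 CPM in control, 111, 126 and 125 in acetate and 128, 141 and 126 in ethanol. Every ethanol library lay above every control library, as in 20.1% of all genes, with a log2 fold change of 0.26 ± 0.11 (limma adjusted p = 0.26, and 0.19 with the block; 1.8e-04 to 0.63 over the 24 alternatives). It rose in 4 of these: with only the 6 libraries compared (12.1% of all genes rose), with GC correction and the block (19.3%), with the block without acetate replicate 2 (24.4%) and with the block on only the 6 libraries (24.2%). Rpl7 was at 780.1, 655 and 582 CPM in control and 518, 469 and 400.0 in ethanol and had -0.54 ± 0.20 (adjusted p = 0.028 in limma with the block). The run of pyrimidines printed above for Rpl7l1 is the shortest of those shown, and some genes not shown had shorter ones. Whether the length of the run goes with the fold change was not tested.

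**Figure D5:**
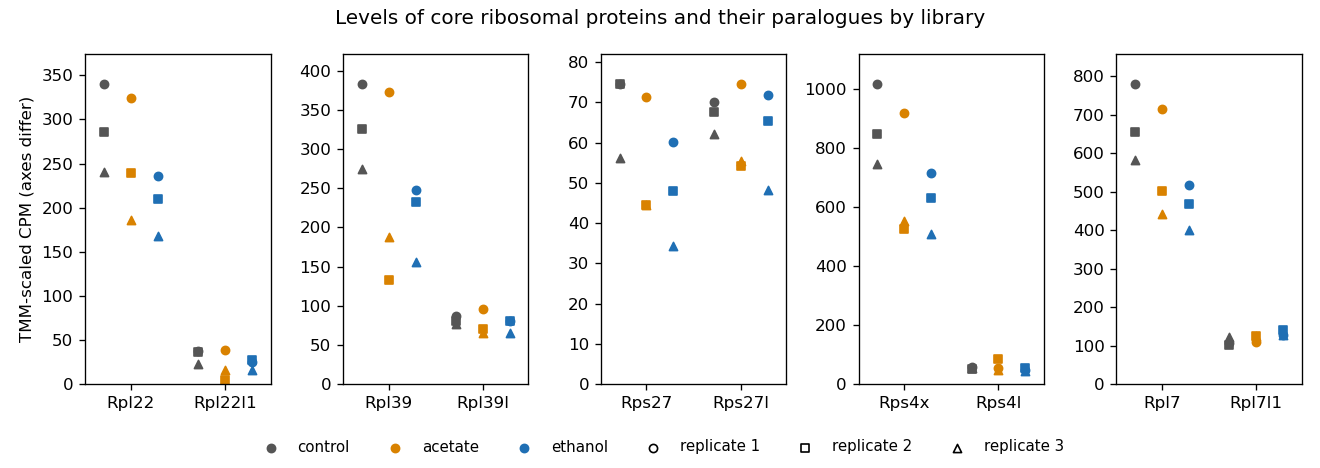
Levels in TMM-scaled CPM of 5 core genes and their paralogues in each library, by group (colour) and replicate number (shape); each panel starts at 0 and has its own axis. Acetate replicate 2 is at 4.65 CPM for Rpl22l1, and the ethanol libraries of Rpl7l1 lie above its control libraries.

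The pseudogene entries followed the parents' direction. With ethanol 10 of 10 tested were negative, with a median of -0.54; none passed (3.93% of all genes did), 6 fell with the block (5.07% of all genes), 8 with only the 6 libraries compared (14.6%) and 2 without acetate replicate 2 (11.3%). Rps6-ps4 was at 1276, 1033 and 1011 CPM in control and at 909, 828 and 721 in ethanol. Summed with Rps6, the ratio of ethanol to control by number was 0.711, 0.798 and 0.714.

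Other genes of the protein synthesis pathway were read from lists that were chosen with results of these data known. Of 25 TOP-type genes for translation factors and partners, 24 were negative with ethanol, with a median of -0.39; none passed (3.93% of all genes did), 13 fell with only the 6 libraries compared (14.6% of all genes), 7 without acetate replicate 2 (11.3%) and 5 with the block (5.07%). Among those 5 were Eef1a1, which brings aminoacyl-tRNA to the ribosome, Eef1g, Eif3h and Eif4b. Eef1a1 had a mean of 6676 ± 775 CPM (SD, n = 3) in control and 4669 ± 505 in ethanol (-0.51 ± 0.17, SE), and its sign turned under quantile scaling, at 0.28. Eif4b, a cofactor of the helicase eIF4A, had 675 ± 103 and 456 ± 23.4 CPM (-0.55 ± 0.17).

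Ribosome biogenesis factors, which process ribosomal RNA and assemble subunits, had values of the other sign. Of 50 tested, 46 were positive with ethanol, with a median of 0.29, and 1 passed, where 1.48% of all genes were higher. That was Rrp12, a factor for subunit export, at 27.3 ± 5.55 CPM in control and 47.5 ± 3.53 in ethanol (0.79 ± 0.18, SE; limma adjusted p = 0.045). With the block 3 rose, Rrp12, Utp20 and Ddx21, where 3.27% of all genes did, and 21 rose and 1 fell without acetate replicate 2 (10.2% of all genes rose). With only the 6 libraries compared 25 rose and 1 fell (12.1% of all genes rose). The call of Rrp12 was lost in 10 of the 24 alternatives, among them each of those without an ethanol library, with limma adjusted p-values of 0.11, 0.18 and 0.17.

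RNA polymerase I genes, which transcribe ribosomal RNA, had a median of 0.04 over 20 tested, and mTORC1 genes one of 0.03 over 28, with none past the threshold in either list (3.93% of all genes passed). With only the 6 libraries compared, 6 and 2 genes of these lists rose (12.1% of all genes), without acetate replicate 2 4 and 2 (10.2%), and with the block 1 and 0 (3.27%). Mitochondrial ribosomal proteins, which serve a separate ribosome, had a median of -0.04 over 78 tested, with 53 negative and none past the threshold. With the block 1 rose and 2 fell (3.27% and 5.07% of all genes). With only the 6 libraries compared 1 rose and 7 fell (12.1% and 14.6% of all genes). The same counts, 1 and 7, were found without acetate replicate 2 (10.2% and 11.3%). With acetate against control the medians were -0.26 for the TOP-type genes, 0.11 for biogenesis factors and 0.04 for mitochondrial ribosomal proteins. No gene of these lists passed, where 1.0% of all genes did.

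The 5 genes outside the set whose log2 level correlated most with the summed level of the 83 over the 9 libraries were Timm8b (r = 0.994), Pafah1b3 (0.992), Gm15772 (0.991), Vgll4 (0.990) and Mrpl53 (0.989), out of 9740 genes searched, of which 312 had an r above 0.9. The 9 libraries share 3 groups, so these values are a description.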

How the data were processed

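The authors deposited 1 table of log2 values, TMM-normalised per the file headers and name. The submitters' processing notes name Partek, Bowtie2 2.2.5, STAR 2.7.8a and mm10, with no role or order; the counting step and annotation are not stated in the sources used here. The labels' treatment text concerns other cells and mice and was left aside.

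Each library's floor, which an offset of 1e-05 read would give, was subtracted to obtain TMM-scaled CPM. Of low values, 85.6% to 87.2% were whole reads within 0.02, so no count test was used. For the 12868 genes whose mean reached 1 CPM, limma 3.58.1 (R 4.3.3) was run on log2(CPM + 1) (1 mean per group, 9 libraries, mean trend, two-sided, Benjamini-Hochberg over all 12868). Fold changes on this scale understate those of low genes.

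Deviations of same-numbered ethanol and control libraries correlated across genes at 0.554, 0.363 and 0.667. Those of acetate and ethanol libraries did so at 0.150, 0.251 and 0.615, and the numbers were taken to pair both comparisons. For acetate and control the values were 0.245, -0.101 and 0.408, and no pairing was taken. Pairing both other comparisons by number would imply a pairing here too, so these choices do not match. The -0.101 is that of the libraries numbered 2, which include acetate replicate 2. Acetate replicate 2 and ethanol replicate 1 correlated at 0.183, above the 0.150 of the libraries numbered 1. The labels do not state a pairing, so it is inferred from these data. The block in acetate against control is given as an alternative only.

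Gene types, GC content and lengths (the shortest principal transcript) came from GENCODE M21 on GRCm38; 24919 table entries matched by symbol, 423 by synonym and 860 not. Genes named were the 5 highest and 5 lowest per kilobase, a preset list of well-known members and paralogues, and the largest change per comparison; others are said to be picked after their values were seen. The members and lists were chosen with earlier results of these data known. 1 gene of the lists is not reported here by name.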

Additional observations from a re-analysis of the deposited data

How the results depend on the processing

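Counts of ribosomal protein genes past the threshold depended on the fit. Over the 24 alternatives their median log2 fold change ran from -0.62 to -0.36 for ethanol against control and from 0.29 to 0.62 for acetate against ethanol. For acetate against control it ran from -0.22 to 0.14 and changed sign. The summed level of each group moved by less than its SD between replicates under the 3 other scalings and the GC correction, the 4 under which it was recomputed. For ethanol against control, the genes that fell numbered 38 with the replicate block, 5 with GC correction, 73 with GC correction and the block, 64 with only the 6 libraries compared, 79 with the block without acetate replicate 2 and 79 with the block on 6 libraries; leaving out 1 library at a time gave 0 to 20. The 1 gene that rose did so with GC correction and the block, with only the 6 libraries, with the block without acetate replicate 2 and with the block on 6 libraries. For acetate against control, 19 fell with GC correction and the block and 29 with the block without acetate replicate 2, and none with the block alone. For acetate against ethanol, 5 were higher with the block, 66 with GC correction and the block and 77 with the block without acetate replicate 2; leaving out 1 library gave 0 to 10. The cause was not tested. Of 1224 single-gene values (51 over 24 alternatives), 1026 kept direction and side of the threshold, 186 newly passed, 10 (all Rrp12) no longer passed and 2 turned: Rps27l, whose values without 1 library ran from -0.24 to 0.041, the latter without ethanol replicate 3, and Eef1a1 to 0.28 with quantile scaling. The block on 6 libraries, the set numbered 1 and 2 and the GENCODE start of the tract were chosen after seeing the data. With 3 libraries a group, few replicates limit precision.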
